A study of Rattus norvegicus with 9 samples.

Results

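The genes described here are 8 enzymes of the methionine and one-carbon cycle in rat liver: Mat1a, Mat2a, Gnmt, Bhmt, Ahcy, Cbs, Cth and Pemt. They were chosen by name, with earlier results of these data known. Each was looked up by its gene symbol in the annotation of the array, which names 18166 genes. A value of its own was found for 7 of the 8, and all 7 passed the filter on dim genes that kept 15793 genes for testing. Mat2a has no value of its own, because the only probe set that lists it, 17792280, also lists Mat2al1; that probe set is described by its number.

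RNA was measured on 9 whole-transcript Affymetrix arrays from laser-microdissected liver of female F344 rats. According to the labels the animals had received retrorsine, 2 injections of 30 mg/kg given 2 weeks apart, and 4 weeks after the later injection part of the liver was removed, and the labels state no age. Retrorsine is a plant alkaloid that blocks division of resident hepatocytes, and such livers regrow through nests of small progenitor cells that resemble hepatocytes (SHPCs). The 3 groups of 3 arrays are hepatocytes next to SHPC clusters of livers that got no Thy1+ cells (the arrays titled Control), SHPC clusters of livers without transplantation (SHPC), and SHPC clusters of livers that had received sorted Thy1+ cells through the spleen (Thy1), called transplanted-liver SHPCs below. Donors carried the enzyme DPPIV and the recipients lacked it. So the controls carry the retrorsine and the hepatectomy too, and no array holds liver without them. Clusters were picked under the microscope on hematoxylin-stained frozen sections 7 µm thick. The labels give neither the animals behind the captured regions nor which regions share one, so the replicate spread may be technical and p-values over regions are too small if regions share an animal. The labels of the hepatocyte arrays disagree: their titles and cell type name control hepatocytes, as used here, and their description names SHPCs after transplantation.

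Hepatocytes run most of the methionine metabolism of the body. Methionine adenosyltransferase makes S-adenosylmethionine, the methyl donor of the cell: Mat1a encodes the form of the mature hepatocyte, and Mat2a the form of most other tissues and of growing or fetal liver. Methyltransferases such as Gnmt and Pemt spend it and release S-adenosylhomocysteine, which Ahcy splits into homocysteine and adenosine. Homocysteine is then either methylated back to methionine, with betaine by Bhmt or with methyl folate, or passed by Cbs and Cth down the transsulfuration route to cysteine.

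All values below are log2 of the deposited array intensity, and a difference is a difference of group means on that scale, with the standard error (SE) of limma's linear model. A gene was counted as changed at an adjusted p under 0.05 after Benjamini-Hochberg adjustment over all 15793 genes. Levels of different genes are not set against each other, since every probe set has its own brightness. A pair of arrays, number 2 of the SHPCs and number 2 of the hepatocytes, differed from the rest in their whole intensity distribution. Their median intensities on the linear scale were 24.1 and 23.0 against 19.6 to 20.6 on the other 7 arrays, and they lay at 54.1 and 42.2 on the first principal component against -22.8 to 2.30. No array of transplanted-liver SHPCs was of that kind. Values without both arrays, or without SHPC array 2 alone, are given where they differ clearly.

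Bhmt, which methylates homocysteine with betaine, was the only one of these enzymes with a difference past the threshold. On hepatocyte arrays 1, 2 and 3 it lay at 10.86, 10.54 and 11.15, on the SHPC arrays at 11.95, 11.26 and 11.79, and on the arrays of transplanted-liver SHPCs at 12.62, 12.35 and 12.60. The 3 groups did not overlap: every SHPC array lay above every hepatocyte array, and every array of transplanted-liver SHPCs above both. The means were 10.85 ± 0.31, 11.67 ± 0.36 and 12.52 ± 0.15 (SD, n = 3 each). Against hepatocytes, Bhmt was higher in transplanted-liver SHPCs by 1.67 ± 0.21 (SE), or 3.19-fold, with a limma adjusted p of 0.00754. The adjusted p became 0.0575 without array 1 and 0.0587 without array 3 of the transplanted-liver SHPCs, at differences of 1.62 and 1.64. Without SHPC array 2 and hepatocyte array 2 the difference was 1.52 ± 0.13, with an adjusted p of 0.00225. As these are pieces of tissue, fewer cells of a type and less RNA per cell cannot be told apart in any of these values.

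The step from hepatocytes to SHPCs and the step from SHPCs to transplanted-liver SHPCs were both upward for Bhmt, and neither passed the threshold alone. SHPCs lay 0.82 ± 0.21 above hepatocytes, with an unadjusted p of 0.00339 and a limma adjusted p of 0.536. Transplanted-liver SHPCs lay 0.86 ± 0.21 above SHPCs, with an unadjusted p of 0.00255 and a limma adjusted p of 0.325. The 95% intervals ran from 0.34 to 1.29 and from 0.38 to 1.33. The differences were 1.02 ± 0.19 and 0.65 ± 0.19 without SHPC array 2, and without both arrays 0.87 ± 0.15 and 0.65 ± 0.13. The 3 comparisons share arrays, so they are no independent evidence for each other.

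The stretches of 250 bases before the start of 3 genes are given so that the enzyme with the changed level, Bhmt, can be set beside Cth, whose 3 highest arrays were also all from transplanted livers, and Ahcy, whose group means were nearly equal. They are RefSeq sequences of assembly GRCr8, 5′ to 3′ on each gene's own strand, all 3 on the minus strand, and lie at chr2:26614430-26614679 for Bhmt, chr2:249661067-249661316 for Cth and chr3:164044563-164044812 for Ahcy. Capitals mark matches, on either strand, to 5 short motifs. They are the TATA box in the form TATAAA, the CCAAT box with exactly those letters, the GC box in the form GGGCGG, the E-box in the form CACGTG, and the amino acid response element in the form TGATGNAAT, where N is any base.
Bhmt: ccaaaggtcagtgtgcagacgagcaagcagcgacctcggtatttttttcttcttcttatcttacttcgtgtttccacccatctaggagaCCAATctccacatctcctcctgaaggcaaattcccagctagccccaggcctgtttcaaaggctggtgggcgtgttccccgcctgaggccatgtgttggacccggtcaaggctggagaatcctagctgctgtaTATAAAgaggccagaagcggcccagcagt
Cth: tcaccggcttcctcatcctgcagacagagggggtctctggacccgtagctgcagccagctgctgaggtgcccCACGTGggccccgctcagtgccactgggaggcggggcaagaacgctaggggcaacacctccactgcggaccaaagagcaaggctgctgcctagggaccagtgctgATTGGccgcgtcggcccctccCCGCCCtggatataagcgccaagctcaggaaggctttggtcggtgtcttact
Ahcy: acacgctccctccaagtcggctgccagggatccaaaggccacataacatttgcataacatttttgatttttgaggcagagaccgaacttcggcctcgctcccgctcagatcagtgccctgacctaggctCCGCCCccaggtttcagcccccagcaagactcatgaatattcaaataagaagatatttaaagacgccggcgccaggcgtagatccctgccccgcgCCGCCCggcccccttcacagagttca
Bhmt has a TATA box 29 to 24 bases before the start and a CCAAT box 161 to 157 bases before it. Cth has the E-box 178 to 173 bases before the start, and on the other strand a CCAAT box at 73 to 69 and a GC box at 52 to 47. Ahcy has 2 GC boxes on the other strand, at 121 to 116 and at 26 to 21, and no match to the other motifs. All 8 genes were found in the RefSeq table. Among them, the TATA box occurs in 2 and in 13.1% of the 27457 stretches of the same length in that table, the CCAAT box in 6 against 34.3%, the GC box in 5 against 32.4%, the E-box in 1 against 5.8%, and the amino acid response element in 0 against 0.9%. The searched motifs do not overlap in the 3 stretches shown. For Gnmt the stretch lies partly, and for Pemt wholly, inside the span that RefSeq gives the gene, so it precedes an inner start. Both count among the 6 with a CCAAT box. A match describes these letters only.

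**Figure D1:**
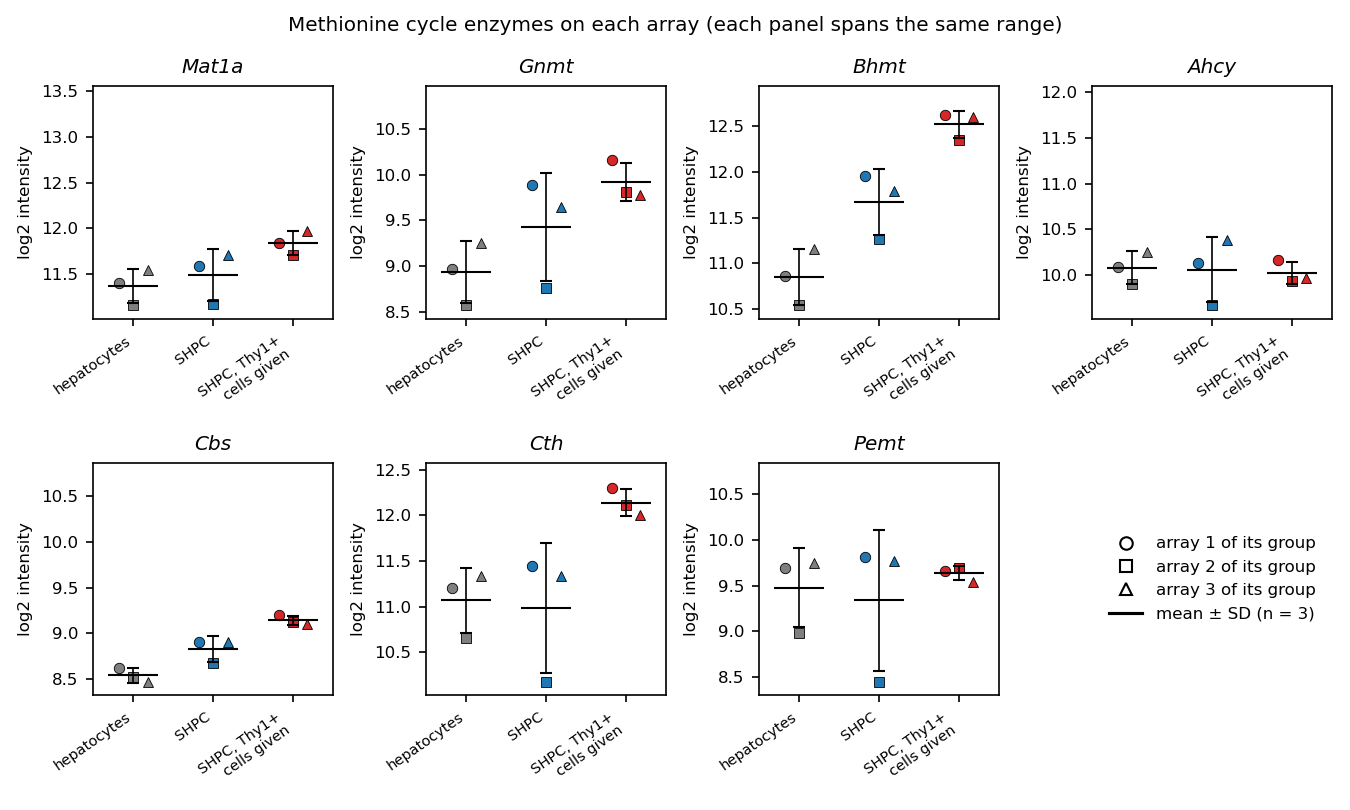
Log2 intensity of each of the 7 enzymes on every array, by group, with the mean and SD of 3 arrays as a bar; marker shapes give the array number within its group, and each panel spans the same range of log2 units. The 3 groups lie apart for Bhmt and Cbs, while Ahcy and Pemt overlap in all groups, and array 2 of the hepatocytes and of the SHPCs is the lowest of its group for most enzymes.

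The synthetase came first in the cycle. Mat1a lay at 11.40, 11.16 and 11.55 on the hepatocyte arrays, at 11.59, 11.17 and 11.71 on the SHPC arrays, and at 11.84, 11.71 and 11.97 on those of transplanted-liver SHPCs. The first 2 groups overlapped. The third lay above all hepatocyte arrays and, with its array 2 and SHPC array 3 both at 11.71 after rounding, above all SHPC arrays. Its difference from hepatocytes was 0.47 ± 0.17, with an unadjusted p of 0.022 and a limma adjusted p of 0.36. The difference from SHPCs was 0.35 ± 0.17, with an adjusted p of 0.703, and 0.19 ± 0.15 without SHPC array 2. SHPCs and hepatocytes differed by 0.12, with a 95% interval from -0.27 to 0.51, and by 0.28 ± 0.15 without SHPC array 2.

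Probe set 17792280, which lists both Mat2a and Mat2al1, passed in none of the 3 comparisons, with limma adjusted p-values of 0.718 to 1. It lay at 6.84, 6.52 and 6.48 on hepatocyte arrays, at 6.45, 6.58 and 6.34 on SHPC arrays, and at 6.22, 6.48 and 6.48 on those of transplanted-liver SHPCs. All 3 groups overlapped. The difference of transplanted-liver SHPCs from hepatocytes was -0.22 ± 0.16, with a 95% interval from -0.57 to 0.13. Its signal cannot be divided between the 2 genes. Per array, Mat1a minus this probe set was 0.69 higher in transplanted-liver SHPCs than in hepatocytes, higher on 3 of 3 arrays, with a two-sided exact permutation p of 0.1, the smallest that 3 arrays against 3 can give. The same value differed by 0.41 between transplanted-liver SHPCs and SHPCs (exact p = 0.2) and by 0.28 between SHPCs and hepatocytes (exact p = 0.3). Leaving out SHPC array 2 made these 0.20 (exact p = 0.4) and 0.50 (exact p = 0.2), and the latter was 0.11 (exact p = 0.6) without SHPC array 3, 0.18 (exact p = 0.6) without hepatocyte array 1 and 0.43 (exact p = 0.3) without hepatocyte array 3.

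Of the methyltransferases, Gnmt turns glycine into sarcosine and so removes surplus S-adenosylmethionine. It lay at 8.97, 8.57 and 9.25 on hepatocyte arrays, at 9.89, 8.76 and 9.64 on SHPC arrays, and at 10.16, 9.81 and 9.78 on those of transplanted-liver SHPCs. Only transplanted-liver SHPCs and hepatocytes lay apart. They differed by 0.99 ± 0.29, or 1.98-fold, with an unadjusted p of 0.00633 and a limma adjusted p of 0.195. Without SHPC array 2 and hepatocyte array 2 the difference was 0.81 ± 0.16 and the adjusted p 0.0348. Between transplanted-liver SHPCs and SHPCs it was 0.49 ± 0.29, and 0.15 ± 0.16 without those 2 arrays.

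Pemt methylates phosphatidylethanolamine to phosphatidylcholine. Its values of 9.70, 8.98 and 9.75 on hepatocyte arrays, 9.81, 8.45 and 9.77 on SHPC arrays, and 9.66, 9.70 and 9.54 on those of transplanted-liver SHPCs overlapped in every comparison. Array 2 of the hepatocytes and array 2 of the SHPCs were the only ones below 9.54. The difference between transplanted-liver SHPCs and SHPCs was 0.29 ± 0.34, with a 95% interval from -0.48 to 1.06, and turned to -0.15 ± 0.09 without both arrays.

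Ahcy, which hydrolyses S-adenosylhomocysteine, had nearly equal means. They were 10.08 ± 0.18 in hepatocytes, 10.06 ± 0.36 in SHPCs and 10.02 ± 0.12 in transplanted-liver SHPCs (SD, n = 3 each). The arrays ranged from 9.90 to 10.25, from 9.67 to 10.38 and from 9.93 to 10.17. The 95% interval of the difference between transplanted-liver SHPCs and hepatocytes ran from -0.48 to 0.36, and that between transplanted-liver SHPCs and SHPCs from -0.46 to 0.38. So changes of that size in either direction remain possible.

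On the transsulfuration route, Cbs joins homocysteine with serine to cystathionine. It lay at 8.62, 8.52 and 8.47 on hepatocyte arrays, at 8.90, 8.67 and 8.90 on SHPC arrays, and at 9.20, 9.12 and 9.10 on those of transplanted-liver SHPCs. As with Bhmt, the 3 groups did not overlap. Transplanted-liver SHPCs exceeded hepatocytes by 0.60 ± 0.12, or 1.52-fold, with a limma adjusted p of 0.0558, just outside the threshold. Without SHPC array 2 and hepatocyte array 2 the difference was 0.60 ± 0.09 and the adjusted p 0.0177. SHPCs exceeded hepatocytes by 0.29 ± 0.12 and transplanted-liver SHPCs exceeded SHPCs by 0.31 ± 0.12, with limma adjusted p-values of 1 and 0.642.

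Cth splits cystathionine to cysteine, the last step of the route. It lay at 11.21, 10.66 and 11.34 on hepatocyte arrays, at 11.45, 10.18 and 11.34 on SHPC arrays, and at 12.30, 12.12 and 12.01 on those of transplanted-liver SHPCs. The hepatocyte and SHPC arrays overlapped here, and all 3 arrays of transplanted-liver SHPCs lay above both. Transplanted-liver SHPCs exceeded SHPCs by 1.16 ± 0.32, or 2.23-fold, with an unadjusted p of 0.00454 and a limma adjusted p of 0.401. That difference was 0.75 ± 0.12 without SHPC array 2 and hepatocyte array 2, with an adjusted p of 0.081. Against hepatocytes the difference was 1.07 ± 0.32, or 2.11-fold, with an adjusted p of 0.204, and without both arrays 0.87 ± 0.12, with an adjusted p of 0.00888. SHPCs and hepatocytes differed by -0.08, with a 95% interval from -0.79 to 0.62, and by 0.33 ± 0.20 without SHPC array 2.

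**Figure D2:**
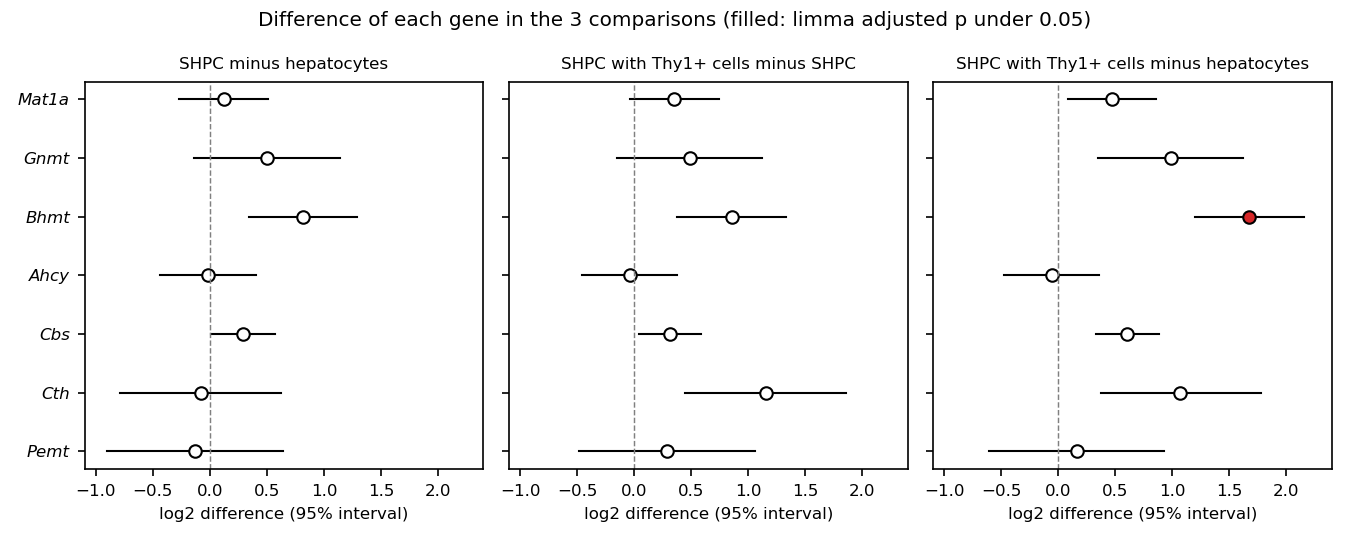
Difference of group means for each enzyme (horizontal axis, log2) in the 3 comparisons, with limma's 95% interval as a line; a filled circle has an adjusted p under 0.05. Bhmt against hepatocytes in transplanted-liver SHPCs, at 1.67, is the only filled circle, and the intervals of Ahcy and Pemt cross 0 in all 3 panels.

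Counted over the 7 enzymes, the comparison of transplanted-liver SHPCs with hepatocytes had 6 higher and 1 lower, and 1 passed the threshold in limma (Bhmt), where 1.18% of all genes tested did (0.861% as higher). All 3 arrays lay above all 3 hepatocyte arrays for 5 of the 7, against 12.6% of all genes, and 5 had an unadjusted p under 0.05, against 10.4%. The median difference was 0.60, against 0 over all genes. Between transplanted-liver SHPCs and SHPCs, 6 of the 7 were higher and 0 passed in limma, where 0.00633% of all genes did; 3 of the 7 had an unadjusted p under 0.05, against 7.35% of all genes. For 4 of the 7 all arrays of transplanted-liver SHPCs lay above all SHPC arrays, against 10.6%. The median difference was 0.35, against 0.02. Between SHPCs and hepatocytes, 4 were higher and 3 lower, and 0 passed in limma, where 0.0633% of all genes did; 2 had an unadjusted p under 0.05, against 4.12%. Those 2, Bhmt and Cbs, were also the ones whose SHPC arrays all lay above the hepatocyte arrays, against 2.72% of all genes. The enzymes, and the lists below, were chosen with earlier results of these data known, so their shares beside all genes are descriptions only.

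Without SHPC array 2 and hepatocyte array 2, 4 of the 7 enzymes passed against hepatocytes in transplanted-liver SHPCs (Bhmt, Gnmt, Cbs and Cth), where 3.67% of all genes tested did. Between transplanted-liver SHPCs and SHPCs 0 of the 7 passed in limma with or without them, and likewise between SHPCs and hepatocytes. The directions changed, though: without both arrays, as without SHPC array 2 alone, all 7 enzymes were higher in SHPCs than in hepatocytes, and 5 of the 7 were higher in transplanted-liver SHPCs than in SHPCs. The median difference between transplanted-liver SHPCs and SHPCs was then 0.19 either way. Against hepatocytes in transplanted-liver SHPCs, leaving out SHPC array 2 alone gave the same 4, where 3% of all genes passed. Leaving out array 1 or array 3 of transplanted-liver SHPCs gave 0, where 0.209% and 0.197% of all genes did.

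**Figure D3:**
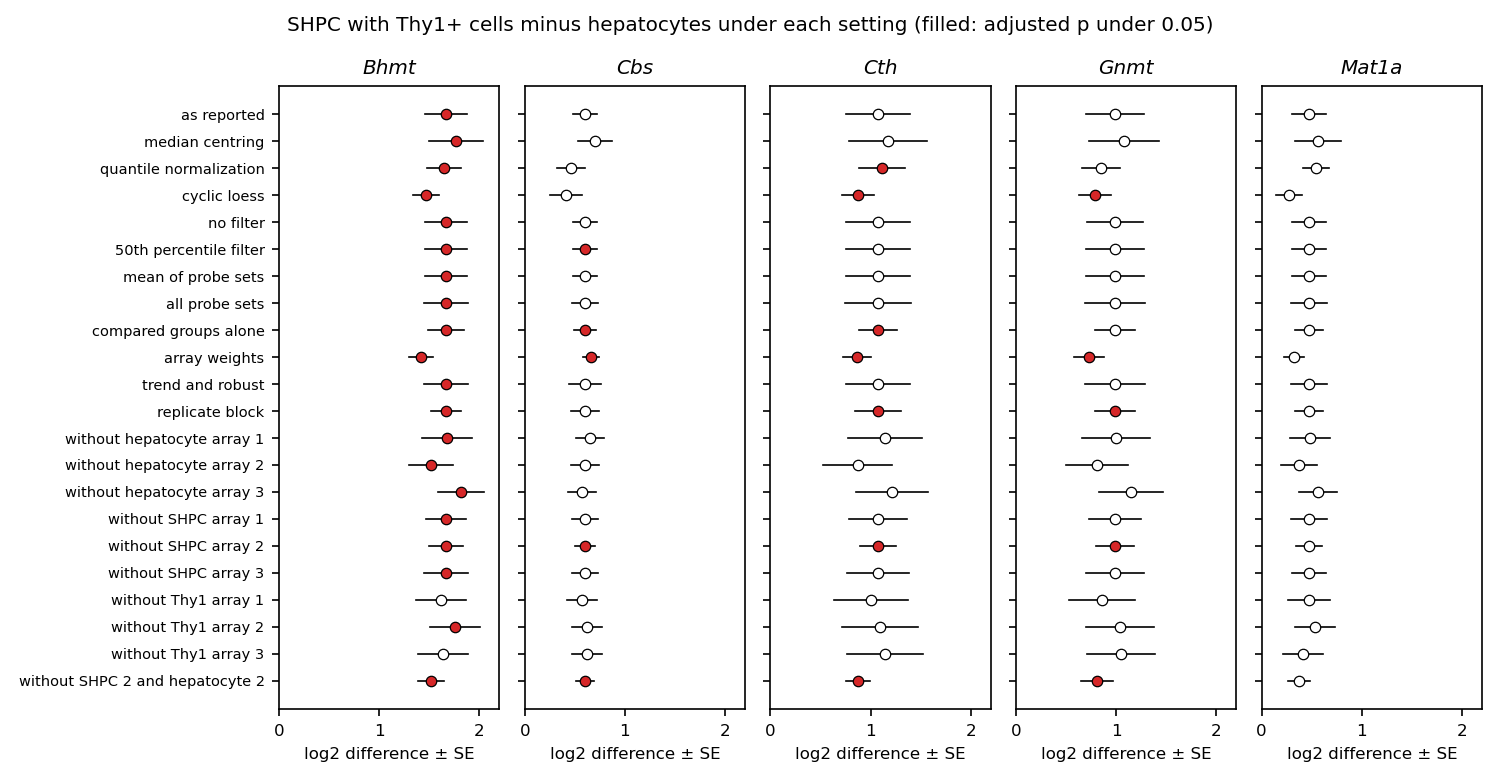
Difference between transplanted-liver SHPCs and hepatocytes for Bhmt, Cbs, Cth, Gnmt and Mat1a (horizontal axis, log2, with SE) as reported and under each other setting (rows); filled circles have an adjusted p under 0.05. The size for Bhmt stays between 1.42 and 1.82 in all of them, whereas its adjusted p runs from 3.8e-05 to 0.0587.

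Other values moved with these groups, and their part in the differences was not tested. Of the hepatocyte markers, 8 were measured, and their summed linear intensity was 28460 to 30550 on hepatocyte arrays, 27200 to 31260 on SHPC arrays and 31110 to 32140 on those of transplanted-liver SHPCs. Albumin (Alb) was at a mean of 13.61, 13.63 and 13.67. Kupffer cell markers summed to 2291 to 3076, 1649 to 2716 and 3145 to 3811 in the same order of groups. Of these 12, all were higher in transplanted-liver SHPCs than in SHPCs, and 11 were higher than in hepatocytes, where 1 passed in limma. Of all genes tested, 53% were higher in transplanted-liver SHPCs than in SHPCs and 49.8% than in hepatocytes, where 1.18% passed. Stellate cell and fibroblast markers summed to 779 to 1159, 654.8 to 983.7 and 1005 to 1207. In transplanted-liver SHPCs 9 of 10 were higher than in SHPCs and 7 of 10 higher than in hepatocytes. Endothelial markers summed to 576.1 to 835.5, 496.9 to 719.7 and 735.2 to 856.7. In transplanted-liver SHPCs 5 of 5 were higher than in SHPCs, but only 2 of 5 higher than in hepatocytes, with a median difference of -0.03. T and NK cell markers summed to 253.9 to 492.6, 214.2 to 369.2 and 395.9 to 523.7; 6 were tested, of which 4 were higher in transplanted-liver SHPCs than in SHPCs and 6 higher than in hepatocytes, while Cd3d, a defining T cell marker, was dim on all arrays. Neutrophil markers summed to 75.34 to 103.4, 71.86 to 93.02 and 67.89 to 71.73, with S100a8 dim on all arrays. Genes of the G2 and M phases of cell division summed to 326.8 to 544.1, 625.5 to 1260 and 1416 to 1700 in the order of the groups above. Of these, 8 of 13 passed as changed between transplanted-liver SHPCs and hepatocytes, against 1.18% of all genes tested. Genes of hepatocytes around the central vein summed to 4830 to 6467, 2877 to 4397 and 3824 to 4939. Of these, 1 of 10 was higher in SHPCs than in hepatocytes, against 48.6% of all genes tested. In transplanted-liver SHPCs 5 of 10 were higher than in SHPCs and 2 of 10 than in hepatocytes. Genes of periportal hepatocytes summed to 11530 to 14700, 14910 to 17920 and 17990 to 18670. Of these, 11 of 11 were higher in SHPCs than in hepatocytes. In transplanted-liver SHPCs 7 of 11 were higher than in SHPCs and 8 of 11 than in hepatocytes. Between transplanted-liver SHPCs and hepatocytes 2 of the 10 and 3 of the 11 passed in limma.

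The genes around the cycle were then read in 7 lists of 93 genes, of which 78 were tested. In transplanted-liver SHPCs against hepatocytes, 57 were higher and 21 lower, and 2 passed in limma, both as higher, where 0.861% of all genes did: Gldc and Got1. All 3 arrays lay higher for 28 of the 78, or 35.9%, against 12.6% of all genes. Between transplanted-liver SHPCs and SHPCs, 57 were higher (53% of all genes were) and 0 passed in limma, with 12 of 78, or 15.4%, at an unadjusted p under 0.05, against 7.35% of all genes. Between SHPCs and hepatocytes, 41 were higher (48.6% of all genes were) and 0 passed in limma, with 6 of 78, or 7.69%, at an unadjusted p under 0.05, against 4.12%. The median differences of the 78 were 0.20, 0.15 and 0.02, against 0, 0.02 and -0.01 over all genes. These rest in part on the 2 arrays that differ from the rest. Without both, 48, 42 and 49 of the 78 were higher and the medians were 0.06, 0.01 and 0.07. In that setting 12 passed against hepatocytes in transplanted-liver SHPCs, where 3.67% of all genes did. With SHPC array 2 alone left out, 57, 42 and 65 were higher and the medians were 0.20, 0.01 and 0.18.

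Gldc encodes the glycine decarboxylase of the mitochondrial glycine cleavage system, which loads folate with a one-carbon unit. It lay at 6.85, 6.22 and 6.48 on hepatocyte arrays, at 8.26, 7.27 and 7.55 on SHPC arrays, and at 8.67, 8.61 and 8.59 on those of transplanted-liver SHPCs. The groups did not overlap, and SHPCs exceeded hepatocytes by 1.18 ± 0.25. That difference had a limma adjusted p of 0.272, and 0.0156 in a fit of these 6 arrays with the replicate number as a block. The block was chosen after seeing the data because same-numbered arrays of the 2 groups deviated together. Such deviations cannot show that the numbers pair the arrays. Transplanted-liver SHPCs exceeded hepatocytes by 2.11 ± 0.25, or 4.31-fold, with a limma adjusted p of 0.00585. Of the 15 tested folate cycle genes, 11 were higher in that comparison, Gldc was the 1 that passed in limma, and the median difference was 0.16. Without SHPC array 2 and hepatocyte array 2 the median was 0.07, 12 were higher and 3 passed, where 3.67% of all genes did. Between SHPCs and hepatocytes 11 of 15 were higher with all arrays and 15 of 15 without those 2, and 0 passed either way.

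Got1 is the cytosolic aspartate aminotransferase, which also acts on cysteine sulfinate. It lay at 9.65, 9.37 and 9.44, at 10.35, 9.97 and 10.19, and at 10.75, 10.59 and 10.92 on the arrays of the 3 groups in the same order, which did not overlap. Transplanted-liver SHPCs exceeded hepatocytes by 1.27 ± 0.15, or 2.41-fold, with a limma adjusted p of 0.00585. In its list, on cysteine, taurine, glutathione and sulfide, 12 of 14 genes were higher in transplanted-liver SHPCs than in SHPCs, 0 passed in limma and 5 had an unadjusted p under 0.05, against 0.00633% and 7.35% of all genes. The median there was 0.50, and between SHPCs and hepatocytes -0.03. The count was 9 of 14 and the median 0.21 without SHPC array 2, and the median between SHPCs and hepatocytes then 0.19.

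Ethe1, the mitochondrial persulfide dioxygenase that clears sulfide, belongs to the same list. It lay at 7.03, 6.72 and 7.11 on hepatocyte arrays, at 8.21, 6.27 and 7.17 on SHPC arrays, and at 9.27, 8.87 and 8.60 on those of transplanted-liver SHPCs, all above both other groups. The SHPC arrays were far apart from each other. The difference from hepatocytes was 1.96 ± 0.40, with a limma adjusted p of 0.0539, and 1.84 with an adjusted p of 0.0197 without SHPC array 2 and hepatocyte array 2. Between transplanted-liver SHPCs and SHPCs it was 1.70 ± 0.40, with an adjusted p of 0.296.

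Oxidation of choline, by Chdh and then Aldh7a1, supplies the betaine that Bhmt uses. The list on choline and betaine oxidation holds more than these enzymes. Slc44a1 transports choline, and Dmgdh, Sardh and Pipox act on dimethylglycine or sarcosine, after betaine has been used. All 6 tested genes of that list were higher in transplanted-liver SHPCs than in SHPCs and than in hepatocytes, with 0 past the threshold in limma in each (0.00633% and 1.18% of all genes) and with 2 and 4 at an unadjusted p under 0.05 (7.35% and 10.4% of all genes). The medians were 0.64 and 0.71, and between SHPCs and hepatocytes 0.01. Without SHPC array 2 and hepatocyte array 2 all 6 were again higher in both, with medians of 0.26 and 0.50. Against hepatocytes 2 of them then passed, where 3.67% of all genes did. Between SHPCs and hepatocytes 5 of 6 were higher without those arrays, with a median of 0.19. Chdh, the choline dehydrogenase, lay at 6.86, 6.61 and 7.19 on hepatocyte arrays, at 7.27, 6.10 and 7.27 on SHPC arrays, and at 8.02, 8.0 and 7.84 on those of transplanted-liver SHPCs. Its arrays of transplanted-liver SHPCs were the highest 3, as for Cth. They exceeded those of hepatocytes by 1.06 ± 0.29, with a limma adjusted p of 0.168, and by 0.93 without SHPC array 2 and hepatocyte array 2, with an adjusted p of 0.00888. Sardh, the sarcosine dehydrogenase, which returns the product of Gnmt to glycine, was 0.99 ± 0.31 higher in transplanted-liver SHPCs than in SHPCs, with an adjusted p of 0.469, and 0.60 higher without SHPC array 2.

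Bhmt2, a relative of Bhmt that also methylates homocysteine, had means of 9.54 ± 0.21, 9.62 ± 0.33 and 10.12 ± 0.07 (SD, n = 3 each). Its difference between SHPCs and hepatocytes was 0.08, where that of Bhmt was 0.82; the difference between the 2 genes was not tested. Against hepatocytes, transplanted-liver SHPCs were 0.58 ± 0.18 higher, with a limma adjusted p of 0.244. The list of other enzymes and regulators of the methionine cycle, which holds Bhmt2, had 9 of 10 genes higher in transplanted-liver SHPCs than in SHPCs, with 0 past the threshold in limma and 1 at an unadjusted p under 0.05 (7.35% of all genes), and a median of 0.20. The count was 6 of 10 and the median 0.03 without SHPC array 2.

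In the last 3 lists, with all 9 arrays, 0 genes passed in limma in any comparison. At most 1 of each list had an unadjusted p under 0.05 in a given comparison. Among 9 tested methyltransferases the medians were 0.21 between transplanted-liver SHPCs and hepatocytes, with 1 of 9 at an unadjusted p under 0.05 (10.4% of all genes), and 0.02 between transplanted-liver SHPCs and SHPCs, with 0 of 9. The first was 0.09 without SHPC array 2 and hepatocyte array 2, though 4 of 9 then had an unadjusted p under 0.05 (15.9% of all genes). Between SHPCs and hepatocytes 3 of 9 did so without those arrays (8.74% of all genes). Gamt, which makes creatine and uses much S-adenosylmethionine, was 0.76 ± 0.38 higher in transplanted-liver SHPCs than in hepatocytes, and Dnmt1, the maintenance DNA methyltransferase, 0.47 ± 0.17 higher, with limma adjusted p-values of 0.535 and 0.361; without both arrays the difference of Gamt was 0.49. The CDP-choline route is the other source of phosphatidylcholine beside Pemt. Its list also holds genes of phosphatidylethanolamine and phosphatidylserine synthesis: Pcyt2, Etnk1, Selenoi, Pisd, Ptdss1 and Ptdss2. Of the 11 tested genes of this wider list, 6 were higher in transplanted-liver SHPCs than in hepatocytes. There 0 passed the threshold in limma, 0 had an unadjusted p under 0.05 and the median was 0. Without SHPC array 2 and hepatocyte array 2, 0 passed, 2 of 11 had an unadjusted p under 0.05 (15.9% of all genes) and the median was -0.05. The genes of the CDP-choline route itself, Chka, Chkb, Pcyt1a, Chpt1 and Cept1, differed by -0.11, -0.14, 0.13, -0.07 and -0.08. For polyamines and methionine salvage, 11 of 13 were higher in transplanted-liver SHPCs than in hepatocytes, with a median of 0.12 and 1 at an unadjusted p under 0.05. Without SHPC array 2 and hepatocyte array 2, 7 of 13 were higher, with a median of 0.03. In that setting 1 passed in limma, where 3.67% of all genes did, and 2 had an unadjusted p under 0.05 (15.9% of all genes).

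**Figure D4:**
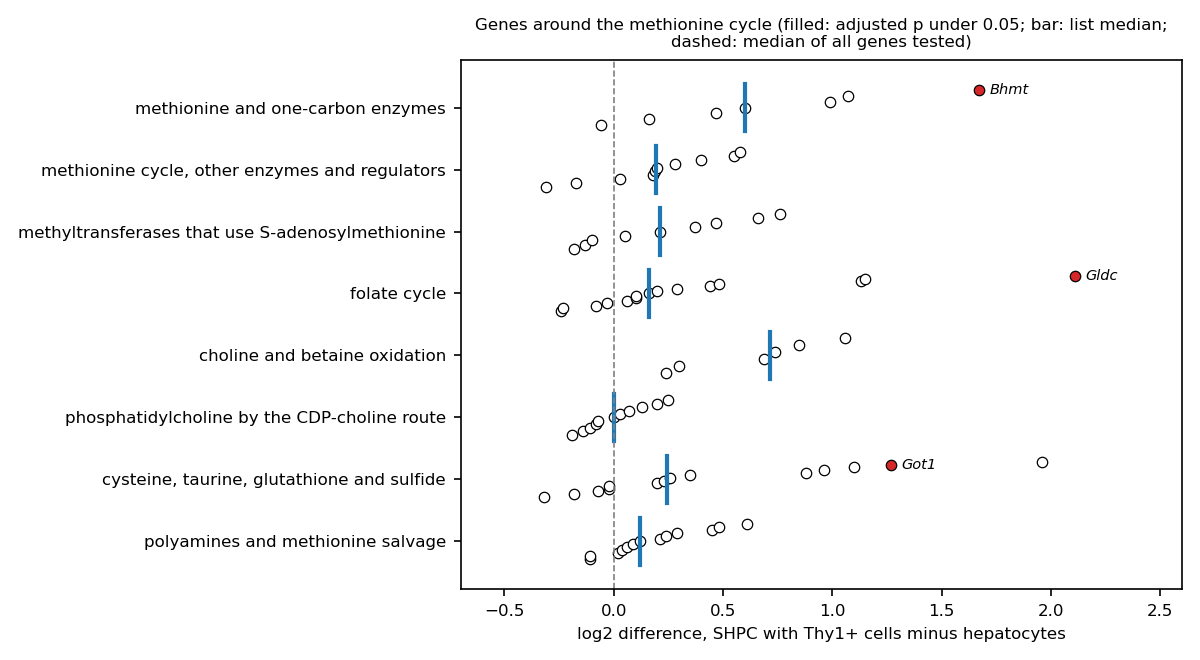
Difference between transplanted-liver SHPCs and hepatocytes (horizontal axis, log2) for each tested gene of the 7 enzymes and of 7 lists around them (rows); the bar is the list's median, the dashed line the median of all genes, and filled circles have an adjusted p under 0.05. Bhmt, Gldc and Got1 are filled, and choline and betaine oxidation has the highest median of the lists around the cycle, 0.71.

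Across the 9 arrays, Bhmt and Cbs had the highest correlation of any pair among the 7 enzymes, with Pearson's r of 0.95, and 0.95 also over the 7 arrays without SHPC array 2 and hepatocyte array 2. Gnmt and Bhmt had 0.92 over both. Pemt changed: with Mat1a its r was 0.70 over 9 arrays and -0.67 over 7, and with Cth 0.76 and -0.60. These are descriptions over few arrays that share the group differences and each array's overall intensity distribution.

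The genes whose level followed each enzyme most closely were the 3 with the highest Pearson's r over the 9 arrays, of all tested genes. For Bhmt they were Fancd2 (0.989) and Fanci (0.987), a pair of the Fanconi anaemia DNA repair pathway, and Dao (0.983), the D-amino acid oxidase. Over the 7 arrays they were Hsd17b6 (0.995), Stil (0.995) and Plaat3 (0.993). For Cth they were Chdh (0.990), Apobec1 (0.986) and Bhmt2 (0.983) over 9 arrays, so that 2 of the 3 belong to the lists around the cycle. Over 7 arrays they were Psmb9 (0.992), Rab28 (0.991) and Anxa4 (0.989). The gene nearest to Mat1a over 9 arrays was Mpst (0.983), a sulfurtransferase of cysteine breakdown, and Hars2 (0.985) over 7. Nearest to Cbs were P4hb (0.978), and over 7 arrays Aldh7a1 (0.994), an aldehyde dehydrogenase that can also oxidise betaine aldehyde. Nearest to Gnmt were Atp5mc1 (0.984) and over 7 arrays Trappc6a (0.984), and Egr1 was among its 3 nearest both times. Nearest to Ahcy was Gtf2a2 (0.966), and to Pemt Rer1 (0.995). Apart from Egr1 for Gnmt and P4hb for Cbs, which were among the 3 nearest in both, the 3 nearest genes differed between 9 and 7 arrays.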

How the data were processed

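The authors deposited linear-scale intensities of 36685 probe sets for each of the 9 arrays. RMA made them, per the submitters' processing notes, with neither version nor parameters stated in the sources used here. This method subtracts background, brings the arrays to one distribution and joins probes into probe sets, so levels are relative to the other probe sets of an array. The log2 was taken here. The platform annotation gives 1 symbol for 18511 probe sets, several for 575 and none for 17599. For the 291 of 18166 genes with several probe sets, that of the highest mean was used. Genes were tested if above their array's 25th percentile on at least 3 of 9 arrays, which left out 2373. One fit of 3 group means over all arrays was made with limma 3.58.1 in R 4.3.3 (lmFit, eBayes, 6 residual degrees of freedom). The method was tested on simulated data with independent noise for each gene and array. Those data held no array-wide shifts and no regions that share an animal, so the test does not cover these. The enzymes, the lists, and the tests were chosen with earlier results of these data known, as was the rule for named genes: all 8 enzymes, and from each list the genes past the threshold and the gene with the smallest p in each comparison, and for each enzyme the 3 genes of highest correlation over 9 and over 7 arrays, with Alb and Afp. Afp had means of 5.24, 5.28 and 5.83 in hepatocytes, SHPCs and transplanted-liver SHPCs. Its limma adjusted p-values for the last group were 0.696 against SHPCs and 0.465 against hepatocytes. Of the 9 tested fetal and progenitor markers, Afp included, 5 were higher in transplanted-liver SHPCs than in SHPCs, and 5 than in hepatocytes. Of all genes, 53% and 49.8% were. Between SHPCs and hepatocytes 8 of the 9 were higher (48.6% of all genes), and 0 passed in any comparison. A planned contrast of Mat1a with Mat2a was run with the probe set shared by Mat2a and Mat2al1. Equal replicate numbers are in the titles. Deviations of same-numbered SHPC and hepatocyte arrays correlated at 0.53, 0.70 and 0.34, and SHPC array 3 correlated at 0.48 with hepatocyte array 1. With transplanted-liver SHPCs the same-numbered values were 0 or below. The main fit used no pairing, and the numbers entered only the block fits. Array 2 of SHPCs and of hepatocytes both differed in intensity distribution, so these correlations cannot show that the numbers pair the arrays. The number of arrays limits the precision.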

Additional observations from a re-analysis of the deposited data

How the results depend on the processing

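The direction and side of the threshold were recomputed for the 7 enzymes in the 3 comparisons under other settings of the analysis. Of 448 such differences, 398 kept both, 22 newly passed, 2 no longer passed and 26 turned sign. For the named genes of the lists these were 822, 35, 0 and 39 of 896. The causes were not tested. T below is transplanted-liver SHPCs, S SHPCs and H hepatocytes.

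In T against H, 1 enzyme passed (1.18% of all genes did). With quantile normalization and with a filter at the 50th percentile 2 did (2.08% and 1.61% of all genes). With cyclic loess, with the compared groups alone and with the replicate block 3 did (2.78%, 1.92% and 2.32%). With array weights and without SHPC array 2 and hepatocyte array 2 it was 4 (17% and 3.67%). Of the list genes 2 passed; 6 did with cyclic loess and with the compared groups alone, 21 with array weights (where 2685 of all genes passed, in place of 186), 5 with the replicate block and 12 without those 2 arrays. Leaving out single arrays gave 0 to 4 enzymes and 2 to 9 list genes. Without SHPC array 2 it was 4 enzymes, where 3% of all genes passed. Without array 1 or array 3 of T it was 0 enzymes, where 0.209% and 0.197% of all genes did. In T against S, 0 enzymes passed, where 0.00633% of all genes did. With array weights 2 did (Bhmt and Cth), where 1.64% of all genes passed. Of the list genes 0 passed. With array weights 3 did, and 1 (Ethe1) with the replicate block, where 0.405% of all genes passed. Leaving out single arrays gave 0 enzymes and 0 to 1 list genes (Ethe1, without SHPC array 1, where 0.152% of all genes passed). In S against H, 0 enzymes passed, where 0.0633% of all genes did. With cyclic loess 1 did (Bhmt) and with array weights 2 (Bhmt and Cbs), where 0.215% and 2.37% of all genes passed. Of the list genes 0 passed. With quantile normalization (0.108% of all genes), cyclic loess and either replicate block (0.222% and 0.481%) 1 did, and 4 with array weights. Single arrays left out gave 0 of both. In S against H, the fit of the 6 arrays with the replicate block was chosen after seeing the data. It called 0 enzymes and, over all genes, 76 in place of 10. In every block fit the block is a number shared in the titles only.

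Signs turned in T against S with median centring (Ahcy 0.07, Pcyt1a 0.04, Pisd 0.10), quantile normalization (Dnmt1 0, Oaz1 -0.06), cyclic loess (Tcn2 0, Dnmt1 -0.02, Oaz1 -0.14), array weights (Pemt -0.09, Dnmt1 -0.07), and without SHPC array 2 and hepatocyte array 2 (Pemt -0.15, Tcn2 -0.04, Dnmt1 -0.10, Pisd 0.01). In S against H they turned with median centring (Gamt 0), quantile normalization (Ahcy 0), cyclic loess (Ahcy and Chdh 0.03), array weights (Ahcy 0.04, Cth 0.05, Pemt 0.03, Chdh 0.10, Sardh 0.08, Selenoi 0.07), and without those arrays (Ahcy 0.09, Cth 0.12, Pemt 0.06, Chdh 0.24, Pisd -0.06). In T against H they turned with median centring (Ahcy 0.04), quantile normalization (Sat1 -0.03), cyclic loess (Pemt -0.04, Sat1 -0.03), array weights (Pemt -0.06), and without those arrays (Pemt -0.09, Pisd -0.05). With single arrays left out, differences in T against S ran from -0.23 to 0.12 for Ahcy, -0.15 to 0.52 for Pemt, -0.04 to 0.36 for Tcn2, -0.10 to 0.12 for Dnmt1 and -0.11 to 0.09 for Pisd. In S against H they ran from -0.18 to 0.17 for Ahcy, -0.31 to 0.33 for Cth, -0.38 to 0.31 for Pemt, -0.04 to 0.27 for Bhmt2, -0.31 to 0.49 for Gamt, -0.23 to 0.74 for Ethe1, -0.21 to 0.38 for Chdh, -0.61 to 0.09 for Sardh, -0.40 to 0.14 for Selenoi and -0.05 to 0.36 for Pisd. In T against H they ran from -0.15 to 0.03 for Ahcy, -0.09 to 0.30 for Pemt and -0.05 to 0.36 for Pisd. Median centring moved the median difference of all genes in T against S from 0.02 to 0.12.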
